A study of Mus musculus with 8 samples.

Results

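Wnt proteins are secreted signals that bind a Frizzled receptor together with the co-receptor Lrp5 or Lrp6 at the cell surface. In the canonical branch this stops a cytoplasmic destruction complex, built on Axin, from marking β-catenin (Ctnnb1) for degradation, and β-catenin then enters the nucleus and works with the DNA-binding proteins of the TCF/LEF family. Dickkopf proteins are secreted regulators of the pathway. In dendritic cells, β-catenin signalling has been linked to tolerance, the state in which T cells are held back from responding.

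The 10 genes described here were Dkk3 and the Frizzled receptors Fzd1, Fzd5 and Fzd7, the co-receptors Lrp5 and Lrp6, the mediators Ctnnb1, Tcf7l2 and Lef1, and the feedback gene Axin2, out of 55487 genes counted in each library. They were taken by name, and Fzd1 and Dkk3 were selected on their difference between wild-type cDC1 and wild-type cDC2, so in that comparison the values of the 10 genes are given as a description, without a test. The libraries were made from conventional dendritic cells (cDC) sorted from the spleens of untreated C57BL/6 mice, 100000 cells in each sample. cDC1 are the subset that depends on Irf8 and specialises in presenting antigen to CD8 T cells, and cDC2 the subset that depends more on Irf4 and Zeb2. There were 4 groups of 2 libraries each: cDC1 with the genotype Zeb2 -165(d1+2+3), called Zeb2 mutant cDC1 here; wild-type cDC1; cDC2 with the genotype Irf8 +32-/-, called Irf8 mutant cDC2 here; and wild-type cDC2. Each mutant genotype was profiled in a single cell type, and the sources used here give neither sex nor age, sort gates or the number of animals behind a library. Replicates are numbered 2 and 3 in the labels, which do not say what a replicate is, so p-values measure the spread between these libraries, which may be technical.

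The libraries held 49380686 to 58611821 counts. The cell types matched their labels: all 8 cDC1 markers passed the test as higher, and all 8 cDC2 markers as lower, in Zeb2 mutant cDC1 than in Irf8 mutant cDC2. Zeb2 was at 2.24 and 3.54 CPM (counts scaled to library size with TMM) in Zeb2 mutant cDC1, against 2.09 and 2.10 CPM in wild-type cDC1, and Irf8 was at 146.7 and 119.9 CPM in Irf8 mutant cDC2, against 126.1 and 103.7 CPM in wild-type cDC2. Neither targeted gene passed the test (edgeR quasi-likelihood, adjusted p = 0.477 and 0.981), so the level of the targeted gene does not check the genotype labels of these cells. In wild-type cDC1, long genes were lower in replicate 2 than in replicate 3. Spearman rho between transcript length and replicate 2 minus replicate 3 was -0.39 across 8399 genes. Genes are not independent replicates, and the difference does not say which of the 2 libraries departs. The same rho was 0.24 in Zeb2 mutant cDC1, 0.14 in Irf8 mutant cDC2 and 4.4e-06 in wild-type cDC2. Fzd1, Fzd5, Fzd7, Lrp5, Lrp6 and Axin2 were lower in wild-type cDC1 replicate 2 than in replicate 3. Dkk3, Ctnnb1, Tcf7l2 and Lef1 were not. These 2 sets mix lengths: Tcf7l2 and Lef1 have 8.89 and 8.79 kb of exon, Fzd1 and Fzd7 4.20 and 4.53 kb.

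The clearest feature of the 10 genes was that Dkk3 and Fzd1 were abundant in both cDC1 groups and nearly absent in both cDC2 groups, while the genes that carry a Wnt signal inside the cell had reads in all 4 groups. Dkk3 encodes a secreted glycoprotein, a divergent member of the Dickkopf family (Ensembl ENSMUSG00000030772, GRCm38 chr7:112116017-112159057, minus strand). It was at 118.2 and 140.3 CPM in Zeb2 mutant cDC1, against 0.193 and 0.0 CPM in Irf8 mutant cDC2. In wild-type cells it was at 85.9 and 76.6 CPM in cDC1, and no read was counted in either cDC2 library. The Irf8 mutant value was 10 reads in replicate 2 and 0 in replicate 3, so each of the 4 cDC1 libraries, with 4481 to 7614 reads, lay far above every cDC2 library. Against 3 counts over the group, the limit that a count of 0 allows (counting error only), Dkk3 was at least 3015-fold higher in wild-type cDC1 than in wild-type cDC2.

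Fzd1 encodes a seven-pass membrane receptor for Wnt proteins (ENSMUSG00000044674, GRCm38 chr5:4753839-4758035, minus strand, annotated over a single block of 4197 bases). It was at 119.2 and 117.5 CPM in Zeb2 mutant cDC1, against 0.269 and 0.367 CPM in Irf8 mutant cDC2. In wild-type cells it was at 93.7 and 137.9 CPM in cDC1, against 0.182 and 0.657 CPM in cDC2. The cDC2 values came from 10 to 37 reads in each library, and no cDC2 library came near a cDC1 library. In bulk libraries such as these, fewer cells with a transcript and less of it in each cell cannot be told apart.

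**Figure D1:**
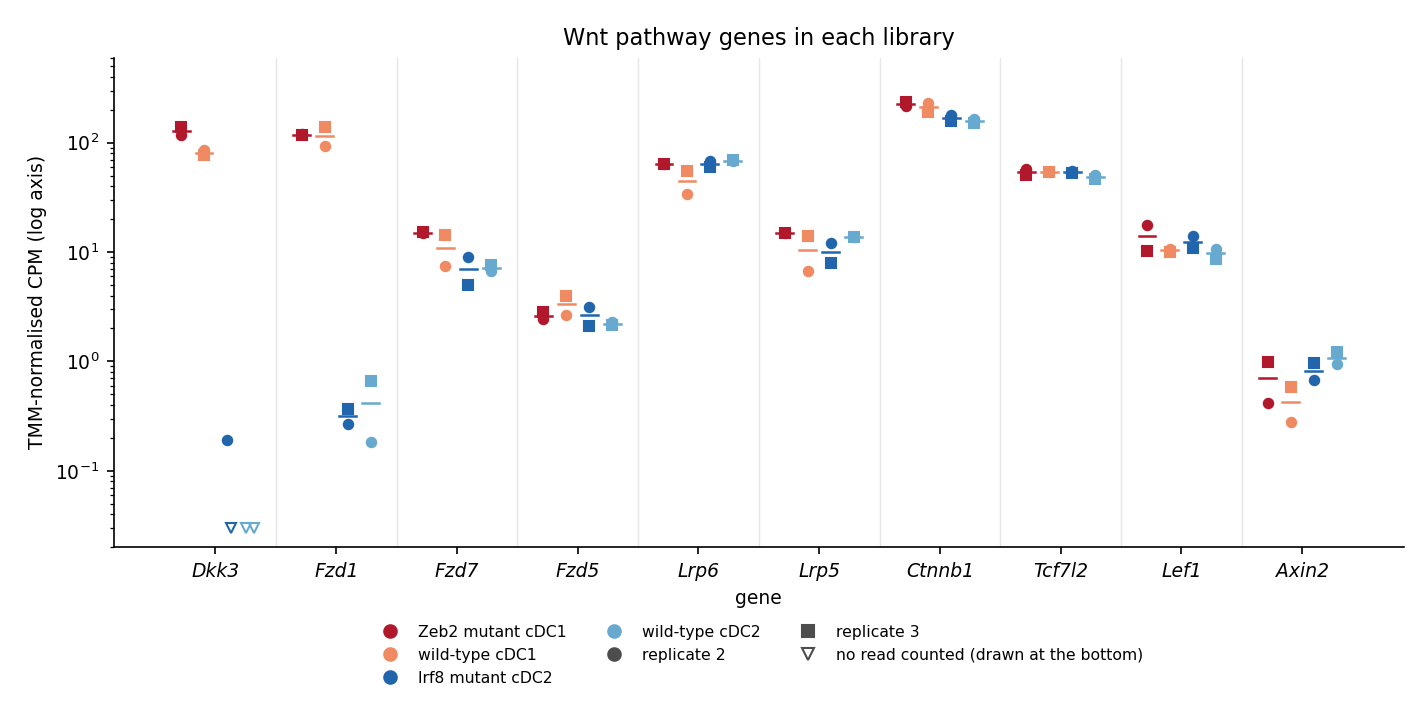
TMM-normalised CPM (log axis) of the 10 Wnt pathway genes in each of the 8 libraries; circles are replicate 2, squares replicate 3, short lines the mean of a group with reads in both libraries, and open triangles libraries with no read. Dkk3 and Fzd1 stand at 76.6 CPM or more in the 4 cDC1 libraries and under 1 CPM in the 4 cDC2 libraries, and the other 8 genes have reads in every library.

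The comparison of the 2 mutant groups set other libraries against each other than the wild-type comparison on which Fzd1 and Dkk3 were selected. It is not independent of that choice. The 10 genes were chosen with earlier results of these data known, and the model was fitted over all 8 libraries. Cell type and genotype also change together in this comparison. In it 4 of the 10 genes passed the test as higher in Zeb2 mutant cDC1 than in Irf8 mutant cDC2 and 0 as lower, where 27.9% of all 20631 genes tested passed, 12.8% as higher and 15.0% as lower. The 4 were Dkk3, Fzd1, Fzd7 and Ctnnb1. Only Dkk3 and Fzd1 were called without Zeb2 mutant cDC1 replicate 2 or 3, without Irf8 mutant cDC2 replicate 3 or without wild-type cDC2 replicate 2. Dkk3 had a log2 fold change of 10.32 (SE 0.46, edgeR quasi-likelihood adjusted p = 4.1e-07), and its ratio of mean CPM was 1343, resting on the 10 reads of a single Irf8 mutant library. Fzd1 had a log2 fold change of 8.53 (SE 0.41, edgeR adjusted p = 2.4e-07), a ratio of 372. The median log2 fold change of the 10 genes was 0.31, beside -0.02 over all tested genes. All 10 genes passed the filter on low counts, Dkk3 and Fzd1 through their cDC1 libraries.

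The few Fzd1 and Dkk3 reads in cDC2 were set beside those of the 8 cDC1 markers in the same libraries. The Irf8 mutant cDC2 level of Fzd1 was 0.269% of its level in Zeb2 mutant cDC1, and that of Dkk3 was 0.0744%. In the same libraries Tlr3, a receptor for double-stranded RNA, was at 0.339%, Itgae at 0.535% and Xcr1, the chemokine receptor that defines cDC1, at 0.924%. In wild-type cDC2, Fzd1 was at 0.362% of its wild-type cDC1 level, with Xcr1 at 0.517% and Tlr3 at 0.922%; by library Fzd1 was at 0.157% and 0.567% and Xcr1 at 0.542% and 0.491%, so their order differed between the replicates. The 5 remaining markers lay between 1.64% and 57.1% in Irf8 mutant cDC2, the highest being Batf3, which cDC2 also express. The share of these reads that came from cDC1 carried over in the sort was not tested.

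**Figure D2:**
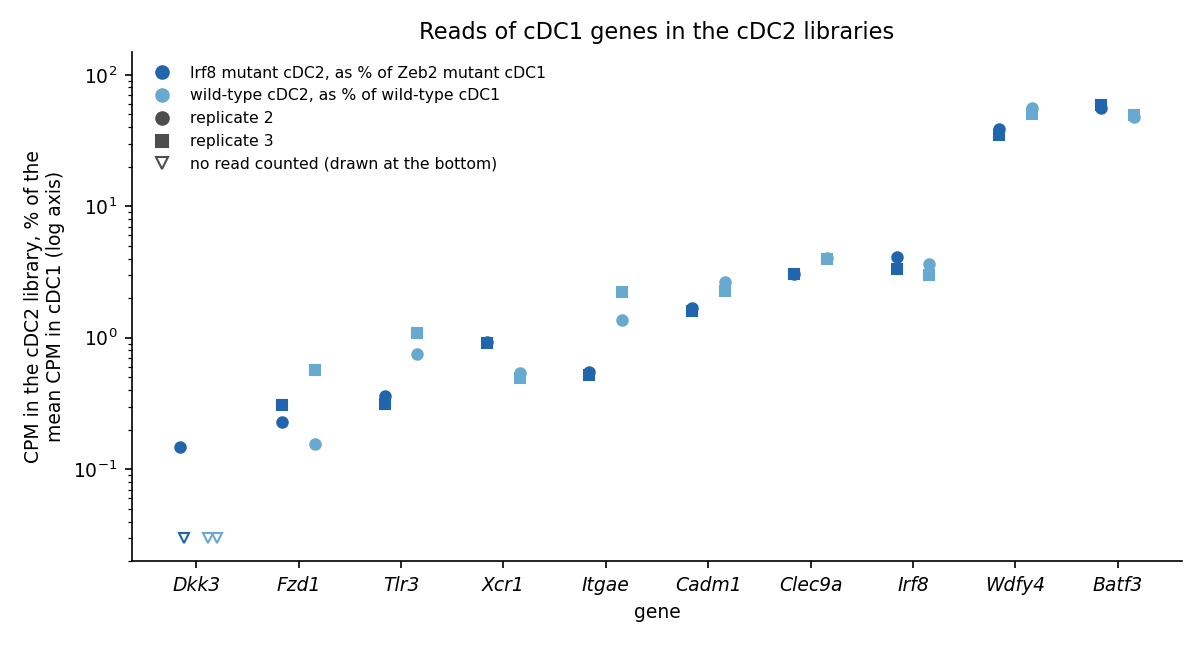
CPM of Dkk3, Fzd1 and the 8 cDC1 marker genes in each cDC2 library as a percentage of the mean CPM in cDC1 (log axis), for Irf8 mutant cDC2 against Zeb2 mutant cDC1 and wild-type cDC2 against wild-type cDC1; open triangles are libraries with no read. Fzd1 and Dkk3 lie at the low end, below 1% in every library, and Wdfy4 and Batf3 at the high end.

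Among the other Frizzled receptors, Fzd7 differed moderately and Fzd5 did not pass the test. Fzd7 (ENSMUSG00000041075, chr1:59482424-59486955) was at 14.8 and 15.2 CPM in Zeb2 mutant cDC1, against 8.97 and 4.99 CPM in Irf8 mutant cDC2. The libraries did not overlap, and the difference just passed the test (log2 fold change 1.10, SE 0.34, edgeR adjusted p = 0.0360). Without Zeb2 mutant cDC1 replicate 2, Zeb2 mutant cDC1 replicate 3 or Irf8 mutant cDC2 replicate 3 its adjusted p was 0.109, 0.124 and 0.208, and without wild-type cDC2 replicate 2 or 3 it was 0.0553 and 0.0518. In wild-type cells Fzd7 was at 7.45 and 14.5 CPM in cDC1, against 6.65 and 7.67 CPM in cDC2, groups that overlapped. Fzd5 (ENSMUSG00000045005, chr1:64730558-64737751) was at 2.44 and 2.80 CPM in Zeb2 mutant cDC1 and 2.66 and 3.999 CPM in wild-type cDC1, against 3.18 and 2.10 CPM in Irf8 mutant cDC2, and 2.31 and 2.13 CPM in wild-type cDC2. Its log2 fold change between the mutant groups was -0.01, with a 95% interval from -0.77 to 0.75. Of the other 7 Frizzled genes, 5 could be tested and 0 were called between the mutant groups, where 27.9% of all tested genes were. Fzd4, the most abundant of them per length in Zeb2 mutant cDC1 and in both cDC2 groups but not in wild-type cDC1, was at a mean of 1.13 CPM in Zeb2 mutant cDC1, against 2.80 CPM in Irf8 mutant cDC2 (edgeR adjusted p = 0.253). Fzd1 was the receptor of this family with the most reads per length in cDC1, at 28.2 ± 0.286 FPKM in Zeb2 mutant cDC1 and 27.6 ± 7.43 FPKM in wild-type cDC1 (SD, n = 2 each; FPKM here is TMM-normalised CPM per kilobase of transcript), followed by Fzd7 at 3.32 ± 0.0686 and 2.42 ± 1.09 FPKM in the same groups.

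The sequence just upstream of a gene's start is where general and cell-type factors bind, and RefSeq (build GRCm38.p6) gives it for 7 of the 10 genes, at RefSeq's own start sites, which for Fzd1 and Fzd7 lie upstream of the gene start in the count files. The 250 bases before the start are printed for the 3 Frizzled genes, since they belong to one receptor family and differ in how they compare between the mutant groups (much higher in cDC1, moderately higher and not called). Fzd1 is at chr5:4758217-4758466, minus strand, Fzd7 at chr1:59481897-59482146, plus strand and Fzd5 at chr1:64737751-64738000, minus strand; letters run 5′ to 3′ on the gene's strand, and capitals mark the only match to a searched motif.
Fzd1: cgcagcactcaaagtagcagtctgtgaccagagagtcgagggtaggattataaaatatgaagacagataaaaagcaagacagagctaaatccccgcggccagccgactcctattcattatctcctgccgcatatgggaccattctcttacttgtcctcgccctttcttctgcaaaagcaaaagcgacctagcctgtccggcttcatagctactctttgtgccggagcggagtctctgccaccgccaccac
Fzd7: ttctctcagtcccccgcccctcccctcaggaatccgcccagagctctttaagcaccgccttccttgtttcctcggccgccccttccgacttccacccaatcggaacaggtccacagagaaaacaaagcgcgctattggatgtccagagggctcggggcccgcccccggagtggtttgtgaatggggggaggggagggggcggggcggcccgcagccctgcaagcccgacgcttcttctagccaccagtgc
Fzd5: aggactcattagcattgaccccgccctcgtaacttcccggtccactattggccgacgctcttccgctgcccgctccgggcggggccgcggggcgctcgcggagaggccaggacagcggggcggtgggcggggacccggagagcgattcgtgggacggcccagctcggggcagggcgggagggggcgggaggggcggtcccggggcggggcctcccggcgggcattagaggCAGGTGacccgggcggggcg
The motifs searched on both strands were CTTTGAT and CTTTGAA for TCF/LEF, TGANTCA for AP-1, the E-box CACCTG bound by Zeb proteins, and GAAANNGAA, a pair of IRF half-sites. The Fzd5 window held a single match, the reverse complement CAGGTG of the Zeb E-box, starting 20 bases before the RefSeq start. No match lay in the Fzd1 or Fzd7 window, nor in those of Ctnnb1, Tcf7l2, Lef1 and Axin2. Of all 32851 windows of the same length, 17.2% held the E-box, 7.48% a TCF/LEF motif, 6.75% the AP-1 motif and 7.13% the IRF pair. The GC content was 51.2% for Fzd1, 65.2% for Fzd7 and 76.4% for Fzd5, with a median of 52.4% over all windows. Motif matches are descriptions of the letters, and no binding was measured in these libraries.

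Lrp5 and Lrp6, the single-pass co-receptors that pair with Frizzled proteins, did not differ detectably between the mutant groups. Lrp6 (ENSMUSG00000030201, chr6:134446476-134566965) was at 63.6 and 63.7 CPM in Zeb2 mutant cDC1, against 68.2 and 60.5 CPM in Irf8 mutant cDC2. The log2 fold change was -0.02, with a 95% interval from -0.46 to 0.42. In wild-type cells Lrp6 was at 33.9 and 55.0 CPM in cDC1, against 67.9 and 68.9 CPM in cDC2. Both wild-type cDC1 libraries lay below the cDC2 libraries there. The lower of them, replicate 2, is the one in which long genes were lower than in replicate 3, and the part of length in the Lrp6 values was not tested. Lrp5 (ENSMUSG00000024913, chr19:3584828-3686564) was at 14.99 and 15.0 CPM in Zeb2 mutant cDC1, against 12.1 and 7.93 CPM in Irf8 mutant cDC2 (log2 fold change 0.58, SE 0.32, edgeR adjusted p = 0.220). In wild-type cells it was at 6.70 and 14.1 CPM in cDC1, against 13.6 and 13.7 CPM in cDC2.

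The intracellular mediators were present in every library. Ctnnb1, which encodes β-catenin (ENSMUSG00000006932, chr9:120929216-120960507), was at 218.8 and 234.5 CPM in Zeb2 mutant cDC1, against 177.3 and 156.5 CPM in Irf8 mutant cDC2. The groups did not overlap, and the small difference passed the test (log2 fold change 0.44, SE 0.14, edgeR adjusted p = 0.0363). The call was lost without any single library of either mutant group, with adjusted p between 0.0613 and 0.193, and without wild-type cDC2 replicate 2 (0.0687). In wild-type cells Ctnnb1 was at 231.3 and 190.0 CPM in cDC1, against 163.1 and 151.3 CPM in cDC2. Both cDC1 libraries again lay above both cDC2 libraries. Ulk4 overlaps Ctnnb1 on the opposite strand, and the library kit does not mark strand, but with means of 0.472 to 1.40 CPM in the 4 groups Ulk4 held few reads.

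Tcf7l2, a DNA-binding partner of β-catenin (ENSMUSG00000024985, chr19:55741820-55933654), was at 58.0 and 50.4 CPM in Zeb2 mutant cDC1 and 54.4 and 54.3 CPM in wild-type cDC1, against 55.0 and 52.5 CPM in Irf8 mutant cDC2, and 50.8 and 46.1 CPM in wild-type cDC2. The 95% interval of its log2 fold change between the mutant groups ran from -0.28 to 0.30. Lef1, another partner (ENSMUSG00000027985, chr3:131110471-131224356), was at 17.6 and 10.3 CPM in Zeb2 mutant cDC1 and 10.7 and 10.1 CPM in wild-type cDC1, against 13.9 and 10.9 CPM in Irf8 mutant cDC2, and 10.7 and 8.72 CPM in wild-type cDC2. The groups overlapped, and Lef1 had a log2 fold change of 0.17 between the mutant groups (SE 0.27, edgeR adjusted p = 0.697). Lef1 is also a gene of T cells. The summed level of 10 T cell markers was 105.2 to 127.5 CPM in Zeb2 mutant cDC1, 86.6 to 98.4 CPM in wild-type cDC1, 69.1 to 92.6 CPM in Irf8 mutant cDC2 and 85.5 to 91.1 CPM in wild-type cDC2. None of the 10 was at 0 in any group, 2 of them passed as higher in Zeb2 mutant cDC1 than in Irf8 mutant cDC2, and the library with the most Lef1, Zeb2 mutant cDC1 replicate 2, also had the highest sum. The library with the next highest sum, Zeb2 mutant cDC1 replicate 3 at 105.2 CPM, had 10.3 CPM of Lef1, and the one with the next most Lef1, Irf8 mutant cDC2 replicate 2 at 13.9 CPM, had a sum of 92.6 CPM. The part of T cell RNA in the Lef1 level was not tested.

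Axin2, a scaffold of the destruction complex that canonical Wnt signalling itself turns on in many cells, was low throughout. It was at 0.413 and 0.995 CPM in Zeb2 mutant cDC1 and 0.276 and 0.581 CPM in wild-type cDC1. It was, in cDC2, at 0.674 and 0.958 CPM in the Irf8 mutant and 0.945 and 1.23 CPM in wild type. Axin2 (ENSMUSG00000000142, chr11:108920349-108950783) had a log2 fold change of -0.21 between the mutant groups with a 95% interval from -1.52 to 1.09, an interval that takes in 2-fold differences either way. The 2 libraries of Zeb2 mutant cDC1 themselves differed by more than 2-fold. In wild-type cells both cDC1 libraries lay below both cDC2 libraries, on 50 reads in cDC1 and 121 reads in cDC2.

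Per length of transcript, the order of levels in Zeb2 mutant cDC1 was Ctnnb1 at 43.7 ± 2.15 FPKM, Dkk3 at 38.5 ± 4.65, Fzd1 at 28.2 ± 0.286, Tcf7l2 at 6.10 ± 0.605, Lrp6 at 4.65 ± 0.00607, Fzd7 at 3.32 ± 0.0686, Lef1 at 1.59 ± 0.585, Lrp5 at 1.54 ± 0.000778, Fzd5 at 0.379 ± 0.0368 and Axin2 at 0.128 ± 0.0748 FPKM (SD, n = 2). Lef1 and Lrp5 overlapped in that order. In wild-type cDC1 the order was the same except that Fzd1 stood above Dkk3, at 27.6 ± 7.43 and 24.2 ± 1.95 FPKM, and these 2 genes overlapped, as did Lrp6 with Fzd7 and Lef1 with Lrp5. Dkk3 exceeded 93.7% of all tested genes in Zeb2 mutant cDC1 and 89.7% in wild-type cDC1, and Fzd1 exceeded 91.3% and 90.9% in the same groups. In both cDC2 groups Ctnnb1, Tcf7l2 and Lrp6 led, and Fzd1 and Dkk3 came last.

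Neither mutation was accompanied by a called change in any of the 10 genes within its own cell type. Between Zeb2 mutant cDC1 and wild-type cDC1, 0 of 10 passed the test, where 0.0679% of all tested genes did; 2 of the 10 had an unadjusted p under 0.05, and DESeq2 also called 0 of the 10, with 158 of all tested genes higher and 147 lower. The median log2 fold change of the 10 was 0.44, beside -0.03 over all tested genes. Dkk3 and Lrp6 were the 2 with an unadjusted p under 0.05. Dkk3 at 118.2 and 140.3 CPM in Zeb2 mutant cDC1 lay above 85.9 and 76.6 CPM in wild-type cDC1, a log2 fold change of 0.67 (SE 0.26, 95% interval 0.08 to 1.26, edgeR adjusted p = 0.420). Without the filter on low counts, where 258 genes rose and 219 fell in place of 3 and 11, the adjusted p of Dkk3 was 0.0115; over the other alternatives it ran from 0.261 to 0.904. Fzd1 had a log2 fold change of 0.03 with a 95% interval from -0.56 to 0.62.

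Lrp6 was at 63.6 and 63.7 CPM in Zeb2 mutant cDC1, against 33.9 and 55.0 CPM in wild-type cDC1 (log2 fold change 0.52, SE 0.20, edgeR adjusted p = 0.406). With the trend with gene length removed the log2 fold change of Lrp6 was 0.31. Without wild-type cDC1 replicate 2 it was 0.21 (edgeR adjusted p = 0.670), and without replicate 3 it was 0.91 (adjusted p = 0.00852). Lrp5 showed the same dependence, with a log2 fold change of 0.53 (SE 0.32, adjusted p = 0.603), of 0.09 without replicate 2 and of 1.16 without replicate 3 (adjusted p = 0.0475). Fzd7 was at a log2 fold change of 0.46 (SE 0.34), with 14.8 and 15.2 CPM in Zeb2 mutant cDC1 and 7.45 and 14.5 CPM in wild-type cDC1. In each of these 3 genes the wild-type cDC1 libraries differed from each other by more than the mutant libraries did.

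Between Irf8 mutant cDC2 and wild-type cDC2, 0 of the 10 genes passed the test, where 0.0% of all tested genes did in edgeR, with 1313 of them at an unadjusted p under 0.05 and 151 called by DESeq2 (76 higher and 75 lower); DESeq2 called 0 of the 10. Apart from Dkk3, the log2 fold changes ran from -0.45 for Lrp5 to 0.35 for Lef1. Fzd1 remained low, at 0.269 and 0.367 CPM in Irf8 mutant cDC2, against 0.182 and 0.657 CPM in wild-type cDC2. For Dkk3 the comparison rests on the 10 reads in Irf8 mutant cDC2 replicate 2, against 0 in the other 3 cDC2 libraries; without the filter on low counts this gave an edgeR adjusted p of 0.0291, and without that library both groups were at 0. That library also had the highest summed level of 6 erythroid and platelet markers, 59.9 CPM against 4.87 CPM in Irf8 mutant cDC2 replicate 3 and 9.36 to 12.1 CPM in wild-type cDC2; their part in the Dkk3 reads was not tested. The difference between the 2 mutant effects was also called for 0 of the 10 genes, with 0.0194% of all tested genes called; without wild-type cDC1 replicate 3 it was called for 2, Lrp5 and Lrp6. The comparisons with wild type share their wild-type libraries with the comparison of wild-type cDC1 and cDC2.

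**Figure D3:**
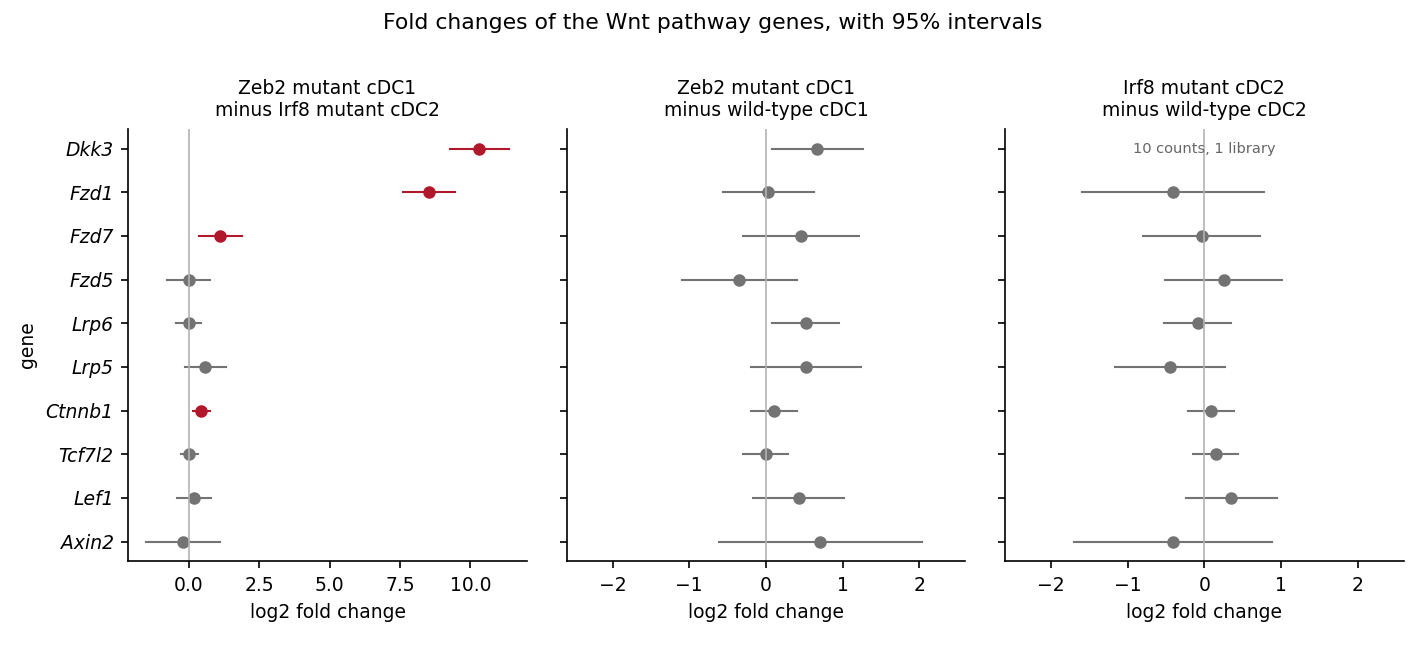
Log2 fold changes of the 10 genes with 95% intervals (edgeR) in 3 comparisons, left to right: Zeb2 mutant cDC1 over Irf8 mutant cDC2, then over wild-type cDC1, and Irf8 mutant cDC2 over wild-type cDC2; red marks an adjusted p under 0.05, and the horizontal scale differs between panels. Dkk3 and Fzd1 stand apart at 10.32 and 8.53 in the left panel, and every gene in the other 2 panels is grey; Dkk3 is not drawn in the right panel, where it rests on 10 reads of a single library.

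The rest of the pathway was read from 9 lists with 136 other genes, 104 of them tested. Of these 104, 28 passed between the mutant groups (26.9%, beside 27.9% of all tested genes): 7 were higher and 21 lower in Zeb2 mutant cDC1 than in Irf8 mutant cDC2, with a median log2 fold change of -0.28, beside -0.02 over all. Between wild-type cDC1 and wild-type cDC2, which share no library with the mutant groups, 41 passed (39.4%, beside 30.1% of all tested genes), 8 as higher and 33 as lower in wild-type cDC1, where 14.2% and 15.9% of all tested genes were. The 23 genes called in both comparisons, 23 of 28 and 23 of 41, had the same sign in each. Both comparisons set cDC1 against cDC2, and the same count over all tested genes is not given here. The shared sign therefore cannot be read as particular to these genes. With the length trend removed the wild-type comparison had 9 higher and 28 lower.

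**Figure D4:**
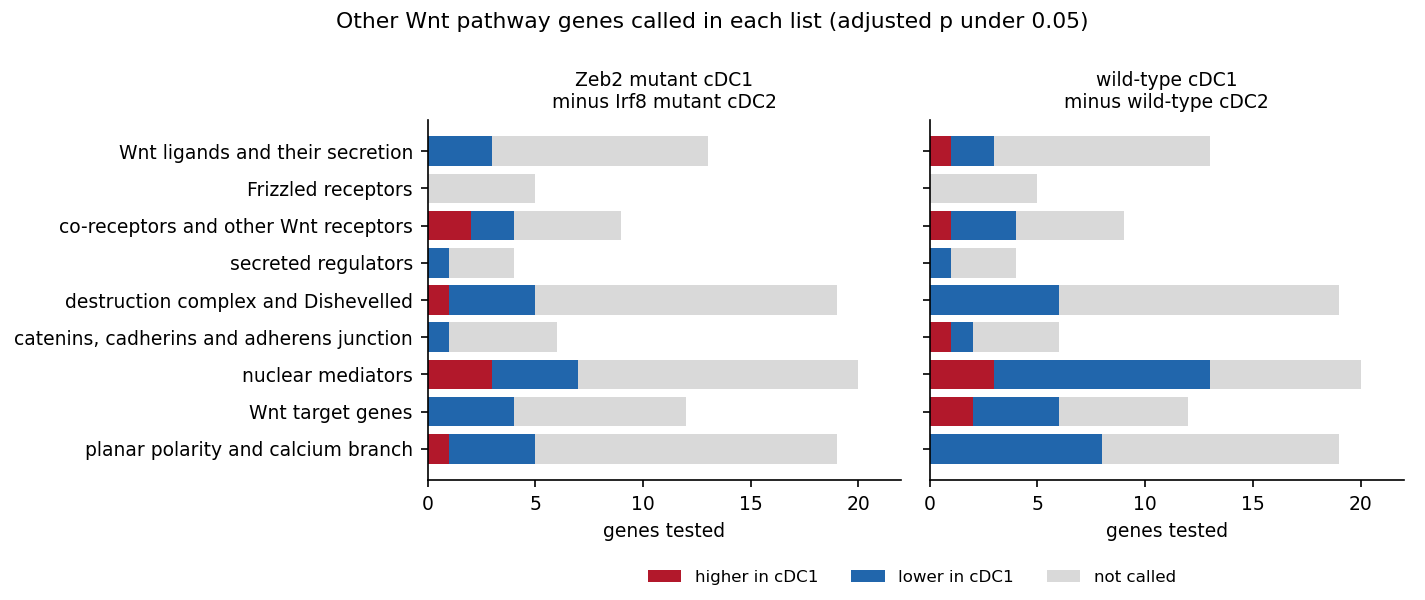
Number of other Wnt pathway genes called higher in cDC1, lower in cDC1 or not called (edgeR adjusted p under 0.05) in each of 9 lists, for the mutant groups (left) and the wild-type groups (right); a gene can be in more than 1 list. Over all lists 7 genes were higher and 21 lower between the mutant groups, and 8 higher and 33 lower between the wild-type groups.

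Of 13 tested genes for Wnt ligands and the machinery that secretes them, 0 were higher and 3 lower in Zeb2 mutant cDC1, beside 12.8% and 15.0% of all tested genes. Wnt11, a ligand best known from the non-canonical branch, was at 3.31 CPM in Zeb2 mutant cDC1, against 83.7 CPM in Irf8 mutant cDC2 (log2 fold change -4.66, SE 0.34, edgeR adjusted p = 4.1e-06). Wls, the carrier that brings Wnt proteins to the cell surface, was at a mean of 1.23 CPM in Zeb2 mutant cDC1 and 23.7 CPM in Irf8 mutant cDC2, which is 19.3-fold lower in the mutant cDC1. The third called gene was Wnt10b, below 1 CPM in every group and named after its values were seen. Among wild-type cells Wnt11 was at 4.20 CPM in the cDC1 and 55.2 CPM in the cDC2, and Wls at 3.21 CPM in the cDC1 and 24.6 CPM in the cDC2. In that comparison 1 of the 13 was higher and 2 lower in wild-type cDC1; the higher one was Porcn, the enzyme that attaches a lipid to Wnt proteins, at 3.63 ± 0.343 CPM in wild-type cDC1, against 0.910 ± 0.384 CPM in wild-type cDC2 (SD, n = 2 each; named after its values were seen).

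Among secreted regulators, 13 of 17 other genes had too few reads to be tested. Of the 4 tested, 0 were higher and 1 lower in Zeb2 mutant cDC1, beside 12.8% and 15.0% of all tested genes. The called gene was Dkk2, which encodes a Dickkopf protein that binds Lrp5 and Lrp6. Dkk2 passed the filter on low counts through its cDC2 libraries. No Dkk2 read was counted in Zeb2 mutant cDC1, against 4.64 and 4.46 CPM in Irf8 mutant cDC2, so Dkk2 was at least 170.6-fold lower in Zeb2 mutant cDC1 (against 3 counts over the group). In wild-type cells it was at 0.0 and 0.0855 CPM in cDC1, against 4.27 and 4.79 CPM in cDC2. Dkk3 and Dkk2 thus lay on opposite sides, Dkk3 higher in cDC1 and Dkk2 higher in cDC2.

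Of 9 tested co-receptors and other Wnt receptors, 2 were higher and 2 lower in Zeb2 mutant cDC1, beside 12.8% and 15.0% of all tested genes. Rnf43, a ubiquitin ligase that removes Frizzled receptors from the surface, was at 3.69 CPM in Zeb2 mutant cDC1, against 20.1 CPM in Irf8 mutant cDC2 (log2 fold change -2.45, SE 0.32). Kremen2, a receptor for Dickkopf proteins, was at 4.10 CPM in Zeb2 mutant cDC1 and 0.480 CPM in Irf8 mutant cDC2 (log2 fold change 3.09, SE 0.45). Ror1, a receptor tyrosine kinase for non-canonical Wnt proteins, was at 0.0780 CPM in Zeb2 mutant cDC1 and 2.42 CPM in Irf8 mutant cDC2. Ryk, named after its values were seen, was the other gene that was higher, at 1.78 CPM in Zeb2 mutant cDC1 and 0.387 CPM in Irf8 mutant cDC2.

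In the destruction complex and Dishevelled list, 1 of 19 was higher and 4 lower in Zeb2 mutant cDC1, by less than 2-fold each. Of all tested genes, 12.8% were higher and 15.0% lower, shares that also stand beside the catenin and nuclear mediator counts below. The casein kinases Csnk1g3, Csnk1e and Csnk1g2, which phosphorylate Lrp6 and other pathway proteins, had log2 fold changes of -0.94, -0.54 and -0.55. The catenin and cadherin list had 0 of 6 higher and 1 lower, Jup, which encodes the β-catenin relative plakoglobin, at 42.8 CPM in Zeb2 mutant cDC1 and 104.9 CPM in Irf8 mutant cDC2. Among nuclear mediators 3 of 20 were higher and 4 lower. Tcf7, which encodes another TCF/LEF factor, was at 39.4 CPM in Zeb2 mutant cDC1, against 138.7 CPM in Irf8 mutant cDC2 (log2 fold change -1.82, SE 0.17, edgeR adjusted p = 2.38e-05). The co-activators Pygo2 and Bcl9l, which act in a chain on β-catenin, went opposite ways, with log2 fold changes of 1.30 (SE 0.13) and -2.24 (SE 0.25).

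Of 12 tested Wnt target genes, 0 were higher and 4 lower in Zeb2 mutant cDC1, beside 12.8% and 15.0% of all tested genes: Tcf7, Rnf43, Ccnd1 and Myc, the last named after its values were seen. In wild-type cDC1 2 of the 12 were higher than in wild-type cDC2 and 4 lower, beside 14.2% and 15.9% of all tested genes. The higher ones, also named after their values were seen, were Cd44 (log2 fold change 0.94) and Nkd2. Nkd2 was under 1 CPM in every library. Its call rests mostly on wild-type cDC1 replicate 3, with 50 reads, against 2 in replicate 2 and 1 and 0 in wild-type cDC2. Ccnd1, which encodes cyclin D1, was at 29.9 CPM in Zeb2 mutant cDC1, against 107.0 CPM in Irf8 mutant cDC2, and Myc was at 14.1 and 60.8 CPM in the same groups. These genes have other regulators too, and Axin2 did not pass. In the planar polarity and calcium branch 1 of 19 was higher and 4 lower in Zeb2 mutant cDC1, beside the same 12.8% and 15.0% of all tested genes. Nfatc1, a calcium-activated transcription factor, was at 173.1 CPM in Zeb2 mutant cDC1 and 291.3 CPM in Irf8 mutant cDC2, and the polarity genes Celsr2 and Vangl2 were lower in Zeb2 mutant cDC1 by log2 fold changes of -2.55 and -1.36.

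Markers of monocytes and macrophages moved with these differences. Their summed level over 7 genes was 53.5 to 54.2 CPM in Zeb2 mutant cDC1, 74.7 to 83.0 CPM in wild-type cDC1, 769.6 to 922.2 CPM in Irf8 mutant cDC2 and 910.1 to 945.8 CPM in wild-type cDC2, with 6 of 7 lower and 1 higher in Zeb2 mutant cDC1 than in Irf8 mutant cDC2. In the cDC2 groups Csf1r and Adgre1, which cDC2 also express, made up most of the sum, and in the cDC1 groups they did not. The macrophage genes Vcam1, Spic and Mertk were also lower in Zeb2 mutant cDC1, with Vcam1 at 20.7 and 19.2 CPM, Spic at 4.92 and 5.68 CPM and Mertk at 0.550 and 0.461 CPM there. In Irf8 mutant cDC2 Vcam1 was at 79.7 and 50.6 CPM, Spic at 30.1 and 25.0 CPM and Mertk at 6.18 and 3.75 CPM. Fcgr1 was lower too, at 1.67 CPM or less in every library, and Ly6c2 was the marker that was higher. The summed level of 8 stromal and endothelial markers was 89.9 to 90.4 CPM in Zeb2 mutant cDC1, 73.7 to 75.6 CPM in wild-type cDC1, 102.0 to 137.1 CPM in Irf8 mutant cDC2 and 109.3 to 119.0 CPM in wild-type cDC2, most of it Pecam1. In that list 0 of 7 tested markers were higher and 1 lower in Zeb2 mutant cDC1, Pdgfrb at 0.550 and 0.866 CPM, against 2.41 and 1.90 CPM in Irf8 mutant cDC2 (edgeR adjusted p = 0.0181). The part of monocytes, macrophages or stromal cells in the cDC2 levels of Wnt11, Wls and the other genes was not tested.

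**Figure D5:**
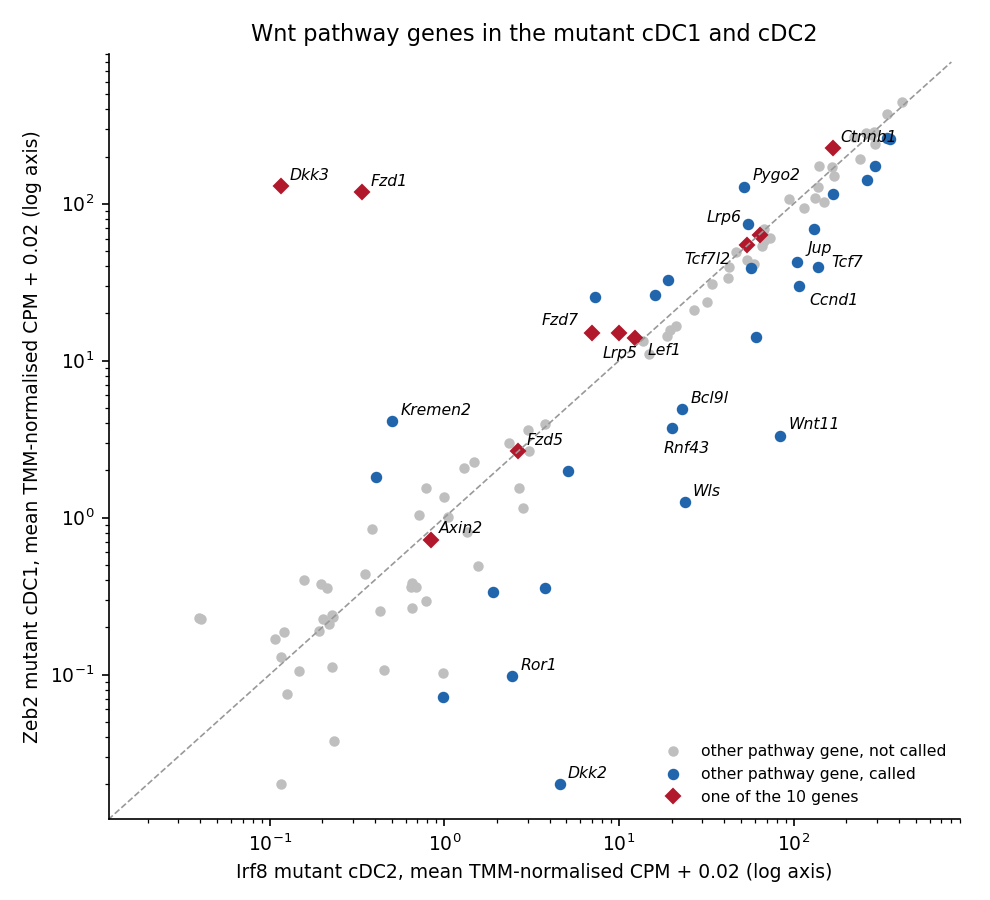
Mean TMM-normalised CPM plus 0.02 (log axes) of the 104 other tested Wnt pathway genes and of the 10 genes in Zeb2 mutant cDC1 (vertical) and Irf8 mutant cDC2 (horizontal); the dashed line marks equal levels, and blue marks an edgeR adjusted p under 0.05. Dkk3 and Fzd1 lie far above the line, Wnt11, Wls, Dkk2 and Ror1 below it, and most of the pathway near it.

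The genes whose pattern over the 8 libraries was closest to Fzd1 and to Dkk3 were found among 9703 others with at least 5 CPM in a group, by the root mean square distance between centred log2 values. For Fzd1 they were Tlr3 at 0.32, P3h2 at 0.33, Gramd2 at 0.39, Xcr1 at 0.40 and Plpp1 at 0.45 log2 units. For Dkk3 they were P3h2 at 0.27, Plpp1 at 0.37, Xcr1 at 0.43, Fzd1 at 0.46 and Gramd2 at 0.51 log2 units. P3h2, which encodes a collagen prolyl hydroxylase, was at 124.0 ± 15.3 CPM in Zeb2 mutant cDC1, at 120.7 ± 7.62 CPM in wild-type cDC1, at 0.375 ± 0.0689 CPM in Irf8 mutant cDC2 and at 0.197 ± 0.0221 CPM in wild-type cDC2 (SD, n = 2 each). The measure includes the wild-type libraries on which Fzd1 and Dkk3 were chosen, and with a pseudocount of 2 in place of 0.5, 2 of the 5 names were shared for each gene.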

How the data were processed

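RNA-seq libraries of sorted splenic cDC1 and cDC2, 8 in all, were analysed from the deposited tables. Per the labels' protocols, 10 ng of RNA went into a SMARTer Ultra Low kit, which does not mark strand. Per the submitters' processing notes, bcl2fastq, STAR, Subread featureCounts and Salmon were used with GRCm38; the order, strand setting and handling of shared reads are nowhere stated in the sources used here. The deposited Count column holds whole-number counts per gene. The deposited CPM is the count scaled by the column total, the deposited FPKM is that value per kilobase of the listed length, and the deposited TPM is the FPKM rescaled, as recomputed from the values (largest relative deviation 1.2e-13). Of 55487 gene IDs, 55141 had a symbol in GENCODE M21, 54821 of these with identical coordinates.

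Counts were fitted with edgeR 4.0.16 in R 4.3.3 (filterByExpr, 20631 genes; TMM; robust quasi-likelihood model with 1 coefficient per group over all 8 libraries, sharing 4 residual degrees of freedom; common biological coefficient of variation 0.286). The call threshold was an adjusted p (Benjamini-Hochberg, all tested genes of a comparison) under 0.05; intervals are at 95%. CPM in the text are TMM-normalised, and levels between genes are these per kilobase. The members and lists were chosen with earlier results of these data known. Per list, up to 3 other genes were named: called between the mutant groups with the smallest adjusted p and 1 CPM or more in the group where they are higher, or else the most abundant; and the 5 genes most like Fzd1 and Dkk3. The model was tested on simulated counts. Alternatives were DESeq2 1.42.0 and its size factors, no filter, a replicate block, a length-trend offset, fits of the compared groups alone and each library left out.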

Additional observations from a re-analysis of the deposited data

How the results depend on the processing

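Dkk3 and Fzd1 were called between the mutant groups under all 15 alternatives, and the count of called genes there was 2 to 4 of the 10 when each library was left out (2 without either Zeb2 mutant cDC1 library, Irf8 mutant cDC2 replicate 3 or wild-type cDC2 replicate 2, when Fzd7 and Ctnnb1 were lost). A library left alone in its group is assumed to vary like the others. Between Zeb2 mutant and wild-type cDC1 the count was 0 to 2 with each library left out and 1 without the filter on low counts (Dkk3); for the difference of the mutant effects it was 0 to 2, the 2 being Lrp5 and Lrp6 without wild-type cDC1 replicate 3; between Irf8 mutant and wild-type cDC2 it was 1 without the filter (Dkk3). The cause of these changes was not tested. Same-numbered libraries did not deviate together (correlations between groups -0.181 to 0.0427 over 8399 genes), so the numbers were not taken as pairs; with a replicate block 3 of the 10 genes were called between the mutant groups, Fzd7 having an edgeR adjusted p of 0.0547, and other counts of called members were 0. The other pathway genes called were 19 to 36 between the mutant groups and 28 to 48 between the wild-type groups over all alternatives.

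Log2 fold changes near 0, none of them called, changed sign. Between the mutant groups Fzd5 was at 0.0092 without the filter, 0.042 with the length trend removed, 0.039 with the replicate block as well, 0.0055 in a fit of those groups alone, and -0.28 to 0.32 with each library left out. Lrp6 was at 0.0016 without the filter, 0.12 with the length trend removed, 0.12 with the replicate block as well, and -0.10 to 0.071 with each library left out. Tcf7l2 was at -0.00030 with DESeq2 size factors, -0.00028 with DESeq2, and -0.092 to 0.111 with each library left out; these ranges were -0.27 to 0.50 for Lef1 and -0.98 to 0.29 for Axin2, and -0.22 to 0.34 for Fzd1 between Zeb2 mutant and wild-type cDC1. The order of levels per length was the same with the deposited TPM in all 4 groups. Of the 5 genes most like Dkk3, 3 were shared with a pseudocount of 0.1. With 2 libraries a group, small differences are beyond these data, and low counts limit Fzd1 and Dkk3 in cDC2; Axin2 is low in all 4 groups.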

Other observations

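Few genes around Fzd1 and Dkk3 could be tested. Within 500000 bases of Fzd1, 8 of 13 annotated entries were tested (Gm22897, with no read, is entered 2 times). Of the 8, 1 passed between the mutant groups, as higher in Zeb2 mutant cDC1. Of all tested genes 27.9% passed, 12.8% as higher. The gene was Cdk14, a cyclin-dependent kinase gene on the same strand that starts or ends 45356 bases away. Cdk14 was at 219.0 ± 1.99 CPM in Zeb2 mutant cDC1, 152.4 ± 22.4 CPM in wild-type cDC1, 143.3 ± 1.495 CPM in Irf8 mutant cDC2 and 124.1 ± 4.11 CPM in wild-type cDC2 (SD, n = 2 each), a log2 fold change of 0.61 between the mutant groups (SE 0.13, edgeR adjusted p = 0.00554). Around Dkk3, 2 of 11 genes were tested and 1 passed, as higher in Zeb2 mutant cDC1, beside the same shares of all tested genes. Mical2, an actin-oxidising enzyme gene 66799 bases away, was at 46.3 ± 1.32 CPM in Zeb2 mutant cDC1, 27.5 ± 3.00 CPM in wild-type cDC1, 25.4 ± 0.431 CPM in Irf8 mutant cDC2 and 22.2 ± 0.256 CPM in wild-type cDC2 (SD, n = 2 each), with a log2 fold change of 0.87 between the mutant groups (SE 0.14, edgeR adjusted p = 0.00109). Usp47, a deubiquitinase gene 4356 bases from Dkk3, was at 237.1 ± 15.9 CPM in Zeb2 mutant cDC1 and 214.8 ± 13.6 CPM in Irf8 mutant cDC2 (SD, n = 2 each; edgeR adjusted p = 0.509). These neighbours were expressed in cDC2 as well, where Fzd1 and Dkk3 were near 0. The window was chosen after other values had been seen.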
